A study of Mus musculus with 89 samples.

Results

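Matrix metalloproteinases and their tissue inhibitors were followed through 8 genes, the proteases Mmp2, Mmp3, Mmp12, Mmp14 and Mmp19 and the inhibitors Timp1, Timp2 and Timp3. The genes were taken by name, with earlier results of these data known, and each was read by its probe set with the highest mean over all arrays. Counts and ranges set beside those of all genes therefore describe these genes and do not test them as a set. They are 8 of the 17097 genes that the array named, and all 8 were among the 15065 genes above the filter on low signal. RNA came from the left lung lobe, after perfusion, of male mice aged 7 to 8 weeks, and was amplified with the NuGEN system and hybridized to 89 Affymetrix GeneChip HT Mouse430PM arrays. The series text also speaks of cells in suspension, while the protocol says that the lobe was frozen for lysis. C57BL/6 mice, BALB/c mice and SP-D-/- mice, whose Sftpd gene for surfactant protein D is disrupted, were used. The strain background of SP-D-/- and the deleted part of Sftpd are not given in the labels, so its comparison with C57BL/6 takes C57BL/6 as the wild type. Mice given no allergen were exposed for 2 h to air or to ozone at 3 ppm, and their lungs were taken 12 h afterwards. The allergen, Aspergillus fumigatus (Af), was injected into the peritoneum of the other mice on days 0 and 7 and instilled into the nose on day 13. Lungs of these mice were taken 24 h after challenge (air only), 96 h after it (ozone only) or 168 h after it (either gas). They too were exposed for 2 h to air or to ozone at 3 ppm, and the lungs were taken 12 h after that exposure. No group was sensitized without challenge, so an allergen group differs from the air or ozone group in sensitization as well as challenge. In the order air, ozone, Af 24 h air, Af 96 h ozone, Af 168 h air and Af 168 h ozone there were 6, 6, 4, 5, 4 and 6 arrays of C57BL/6. SP-D-/- had 5, 4, 6, 6, 5 and 4 arrays and BALB/c 5, 2, 5, 6, 6 and 4. Only replicate numbers mark the arrays of a group as separate samples. The p-values measure the spread between such samples, estimated for each gene over all 18 groups together, except where only the groups compared were fitted. Narrow and wide groups therefore share the same estimate. The SD of the Timp1 log2 signal, for example, was 0.36 in C57BL/6 ozone and 2.47 in C57BL/6 Af 24 h air.

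Matrix metalloproteinases are zinc enzymes that cut the proteins around cells, among them collagens, elastin and the proteins of basement membranes. Most are made as inactive precursors, and the tissue inhibitors of metalloproteinases (Timps) block the active enzymes by binding to their catalytic site. In the lung, alveolar macrophages are a known source of Mmp12, and mesenchymal cells of Mmp2 and the Timps.

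Levels are deposited log2 probe set signals throughout, and a difference of 1 is a doubling of signal. Levels of different genes are not compared, because each probe set has its own response. A gene was called at an adjusted p under 0.05 with limma, with Benjamini-Hochberg adjustment over the 15065 genes of a comparison. In bulk lung RNA, fewer cells of a type and less RNA per cell cannot be told apart.

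The lung markers Sftpc, Scgb1a1 and Ager, surfactant protein C, the club cell secretoglobin and the receptor of alveolar type I cells, averaged 9.94 to 12.93 over the 89 arrays. Sftpd, strain markers or both went against the label on 5 arrays. BALB/c Af 24 h replicates 4 and 5 (Sftpd 8.79 and 7.68) and SP-D-/- Af 96 h ozone replicate 1 (10.94) did so by Sftpd alone. C57BL/6 Af 96 h ozone replicate 1 did so by the strain markers alone, and BALB/c Af 168 h ozone replicate 6 by both. The spike level, the mean of 18 hybridization control probe sets, also differed between arrays. The first principal component of 5000 genes, which held 41.8% of their variance, followed it with r = 0.887 over the arrays. Each comparison is therefore given for all 89 arrays and, where the call differs, for the 84 other arrays with the spike level as a covariate, here the spike-adjusted fit. Of 368 pairs of a member and a comparison, 36 were called with all arrays and 23 in the spike-adjusted fit, with 20 in both.

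Mmp12 (chr9:7344397-7360461) and Mmp3 (chr9:7445822-7455975) lie in the metalloproteinase cluster of chromosome 9 in mouse build GRCm38.p6, by the RefSeq annotation. Mmp14 is at chr14:54431598-54442456, Mmp19 at chr10:128790910-128800827 and Mmp2 at chr8:92827290-92853421. Timp1 is at chrX:20870166-20874737, Timp2 at chr11:118301061-118355411 and Timp3 at chr10:86300412-86349505. RefSeq promoter windows of 250 bases before the start matched 6 of the 8 members, and Mmp12 had 2 starts. Windows are shown for Timp1 and Mmp12, which varied most over the groups, and for Mmp3, which lies near Mmp12. All are on the plus strand and read 5′ to 3′, Mmp3 at chr9:7445572-7445821, the second start of Mmp12 at chr9:7347124-7347373 and Timp1 at chrX:20869916-20870165. Of 3 motifs searched, capitals mark TGANTCA, which AP-1 factors of the Fos and Jun families bind and which reads the same on both strands, and AGGAAG, a core bound by Ets factors, searched on both strands.
Mmp3: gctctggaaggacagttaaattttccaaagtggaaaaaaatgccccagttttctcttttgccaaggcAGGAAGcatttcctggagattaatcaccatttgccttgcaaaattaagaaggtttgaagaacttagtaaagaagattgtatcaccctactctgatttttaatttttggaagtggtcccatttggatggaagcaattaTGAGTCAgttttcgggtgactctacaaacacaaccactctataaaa
Mmp12: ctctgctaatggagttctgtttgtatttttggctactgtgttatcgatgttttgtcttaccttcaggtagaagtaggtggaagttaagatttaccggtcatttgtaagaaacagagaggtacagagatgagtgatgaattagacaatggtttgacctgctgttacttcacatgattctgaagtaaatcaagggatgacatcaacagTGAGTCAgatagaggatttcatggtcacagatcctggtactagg
Timp1: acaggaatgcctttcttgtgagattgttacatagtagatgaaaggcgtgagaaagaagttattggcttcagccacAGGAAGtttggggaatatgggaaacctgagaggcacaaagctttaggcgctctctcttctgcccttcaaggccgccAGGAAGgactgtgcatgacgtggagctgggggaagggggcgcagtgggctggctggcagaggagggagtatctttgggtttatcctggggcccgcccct
The first motif began 46 bases before the start in Mmp3 and 44 bases before the second start of Mmp12, and 6.75% of 32851 RefSeq windows of this length held it. The second began 183 bases before the start in Mmp3 and 175 and 99 bases before it in Timp1, and 29.5% of the windows held it on either strand. The first start of Mmp12 held the second motif on the opposite strand, and Mmp14 and Timp3 held it once each. The third motif searched, TATAAA on either strand, is left in lower case. It lay 7 bases before the start in Mmp3 and in no other member's window, and 12.4% of the windows held it. The motifs did not overlap. These matches describe letters in a window and do not show binding.

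Mmp12 and Timp1 moved most over the 18 groups. The group means of Mmp12 ran from 4.13 in C57BL/6 air to 9.07 in BALB/c Af 168 h air, a range above that of 99.9% of tested genes. Those of Timp1 ran from 5.79 in C57BL/6 air to 9.21 in BALB/c Af 24 h air, above 98.9% of genes. The median range over tested genes was 1.23. Mmp2 ran from 4.79 to 7.49, Timp3 from 7.27 to 9.74, Mmp3 from 5.88 to 8.19 and Timp2 from 8.42 to 10.38. Mmp19 (6.08 to 7.51) and Mmp14 (6.45 to 7.78) moved least. Neighbours in the order of group means mostly lay closer than the larger SD of the pair. Of 17 neighbouring pairs per gene, 1 stood further apart for each of Mmp3, Mmp14 and Timp3, and none for the other 5 genes.

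Timp1 rose in C57BL/6 after ozone alone. Timp1 is an inducible inhibitor of many metalloproteinases. In C57BL/6 air its level was between 5.38 and 6.46 with a median of 5.70 (6 arrays), and 12 h after ozone it was between 8.26 and 9.32 with a median of 8.83 (6 arrays). The groups did not overlap, and all 6 ozone arrays lay above every air array. The change was 2.99 ± 0.57 (log2 ± SE), a 7.96-fold rise (adjusted p = 0.00625, limma), and 2.66 in the spike-adjusted fit (adjusted p = 0.000391). Timp1 was the 1 member called of 8, where 0.0266% of all tested genes were called, and 0.0332% in the spike-adjusted fit.

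In SP-D-/- the Timp1 level was 5.14, 6.92, 7.07, 7.65 and 7.29 on the air arrays and 7.74, 8.58, 7.59 and 7.58 on the ozone arrays. The air group was wider than that of C57BL/6, and its highest array overlapped the ozone group. The change of 1.06 ± 0.66 was not called (95% interval -0.25 to 2.37, adjusted p = 0.386, limma). BALB/c had 6.64, 5.94, 6.11, 5.48 and 6.30 in air and 8.01 and 8.21 with ozone. Those groups did not overlap, but with 2 ozone arrays the change of 2.02 ± 0.82 was not called (95% interval 0.38 to 3.66, adjusted p = 1, limma). With so few ozone arrays, the BALB/c groups did not overlap for 5 of 8 members and for 13.3% of all tested genes. The difference between the SP-D-/- and C57BL/6 responses of Timp1 was -1.93 and was not called (adjusted p = 0.635, limma). No member was called after ozone in these strains, where 0.0996% and 0.0133% of genes were called. At an unadjusted p under 0.05 the count was 0 of 8 in SP-D-/- and 1 of 8 in BALB/c, beside 16.7% and 1.04% of all genes.

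Among the proteases, Mmp3 (stromelysin 1, which cuts matrix proteins and activates other proteases) was the one member besides Timp1 whose C57BL/6 air and ozone groups did not overlap. Its level was 7.04 to 7.55 in air with a median of 7.16 and 7.99 to 8.42 with ozone with a median of 8.19. These were 2 of 8 members, and 1.42% of all tested genes had groups that did not overlap. The Mmp3 change of 0.96 ± 0.40 did not pass the test (adjusted p = 1, limma), and was called with only the groups compared (adjusted p = 0.00549). Of 6 neutrophil markers 0 were called with limma in C57BL/6 after ozone, and 0 had an unadjusted p under 0.05, beside 0.0266% and 1.24% of all genes. With shares this low, the counts do not tell whether neutrophils changed. Their mean per array was 5.72 to 6.45 in C57BL/6 air and 5.58 to 6.53 with ozone.

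**Figure D1:**
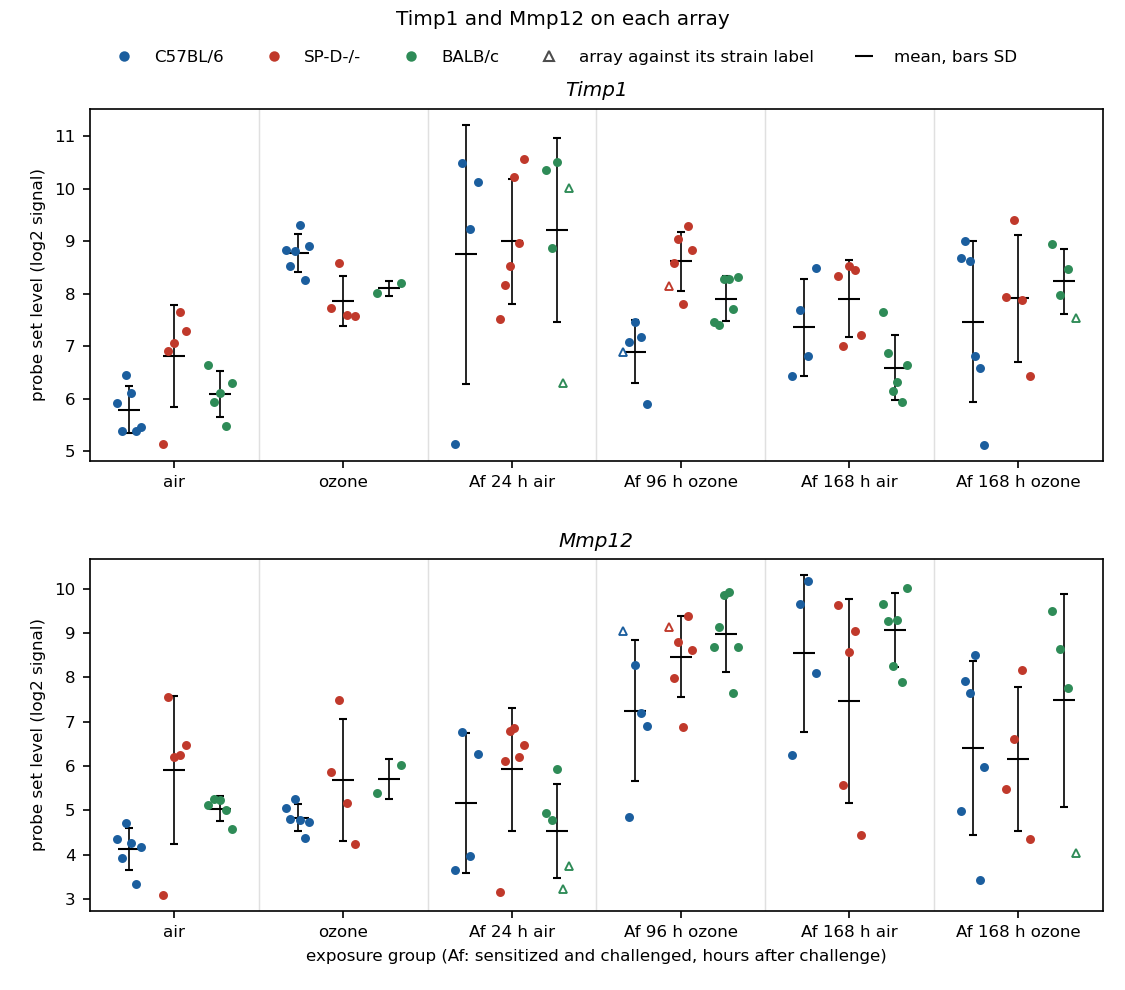
Log2 signal of Timp1 (upper) and Mmp12 (lower) on each of the 89 arrays, in 18 groups of strain and exposure. Points are arrays, triangles are the 5 arrays whose markers went against their label, and bars give the group mean ± SD. Timp1 sits at 5.38 to 6.46 in C57BL/6 air and 8.26 to 9.32 after ozone, and Mmp12 reaches 6.25 to 10.17 in C57BL/6 at Af 168 h with air.

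Timp1 was also higher 24 h after allergen challenge in all 3 strains. C57BL/6 Af 24 h arrays had 5.14, 10.50, 9.24 and 10.13. Replicate 1, at 5.14, lay below all air arrays, and its spike level was 12.3, while the other 3 arrays lay above them. The rise was 2.96 ± 0.64 or 7.79-fold (adjusted p = 0.000979, limma), and 3.58 in the spike-adjusted fit (adjusted p = 1.25e-06). In SP-D-/- the Af 24 h arrays ran from 7.53 to 10.57 with a median of 8.75 (6 arrays). They overlapped the air array at 7.65 and rose by 2.19 ± 0.60 (adjusted p = 0.0169, limma). BALB/c arrays had 10.35, 8.87, 10.52, 6.30 and 10.02, of which the lowest, replicate 4, was 1 of the arrays against their label. The BALB/c rise was 3.12 ± 0.62 or 8.69-fold (adjusted p = 0.000376, limma), and 4.04 in the spike-adjusted fit without those arrays (adjusted p = 1.38e-06). The SP-D-/- call was lost without air replicate 2 (1.77, adjusted p = 0.0957, limma), Af 24 h replicate 6 (1.88, adjusted p = 0.0731) or replicate 4 (1.94, adjusted p = 0.0576), and stood in the spike-adjusted fit at 2.63 (adjusted p = 0.000155). Markers of club and ciliated cells were lower at Af 24 h, with a mean of 8.87 against 10.51 in air in C57BL/6, 8.87 against 10.70 in SP-D-/- and 7.69 against 10.21 in BALB/c. The actin difference, the signal of the 3' beta-actin control minus that of the 5' control and a measure of RNA integrity, was 2.84 against 1.59, 2.54 against 1.88 and 2.64 against 1.71. With it as a further covariate Timp1 was called in C57BL/6 (4.01, adjusted p = 8.88e-07), SP-D-/- (2.84, adjusted p = 6.48e-05) and BALB/c (4.49, adjusted p = 5.8e-07). The part of these markers in the Timp1 values was not tested.

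Beside Timp1, Mmp14 rose at Af 24 h in C57BL/6, and Timp2 and Timp3 fell in BALB/c. The members called were 2 of 8 in C57BL/6, 1 of 8 in SP-D-/- and 3 of 8 in BALB/c, where 16.2%, 4.71% and 12.1% of all genes were called. In the spike-adjusted fit the counts were 2, 1 and 2 of 8, and 13%, 6.15% and 7.49% of genes. Mmp14 is a membrane-bound protease that activates the Mmp2 precursor. It was 6.14 to 6.70 in C57BL/6 air with a median of 6.45 and 7.90, 7.30, 7.49 and 8.29 at Af 24 h. All Af 24 h arrays lay above the air arrays, a rise of 1.29 ± 0.31 (adjusted p = 0.00335, limma). A second Mmp14 probe set, above the filter level on 4 arrays only, differed by -0.48, and the mean of both probe sets by 0.41 (adjusted p = 0.147). With the actin difference as a further covariate the Mmp14 change was 1.02 (adjusted p = 0.0777). In BALB/c Mmp14, higher by 0.82 and not called, was called with cyclic loess (1.00, adjusted p = 0.0168).

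Timp3 is an inhibitor that stays bound to the matrix and also blocks Adam and Adamts proteases. In BALB/c its level was 10.04, 9.98, 9.88, 9.66 and 9.16 in air and 8.67, 7.60, 7.87, 5.85 and 6.92 at Af 24 h. Every Af 24 h array lay below every air array, a fall of 2.36 ± 0.43 on the log2 scale or 5.14-fold (adjusted p = 0.00013, limma). The spike-adjusted fit, without the arrays at 5.85 and 6.92, gave -1.59 (adjusted p = 0.0129), and the actin difference took it to -1.26 (adjusted p = 0.16). The other 3 Timp3 probe sets differed by -2.49, -2.68 and -1.19. Timp2, the inhibitor that also takes part in Mmp2 activation by Mmp14, was 10.30, 10.49, 10.39, 10.34 and 10.09 in BALB/c air and 9.58, 9.79, 9.38, 7.39 and 9.38 at Af 24 h. It fell by 1.22 ± 0.36 (adjusted p = 0.0167, limma), with no overlap. It was not called with only the groups compared (adjusted p = 0.107), without replicate 4, at 7.39 (-0.79, adjusted p = 0.186), or without the 5 arrays (-0.74, adjusted p = 0.316), and the spike-adjusted value was -0.62 (adjusted p = 0.276). Of the other Timp2 probe sets, 3 were lower (-0.81, -1.19 and -0.55) and 1 higher (0.33). In C57BL/6 the changes of Timp2 (-0.61, adjusted p = 0.231) and Timp3 (-0.56, adjusted p = 0.367) were not called, nor was the difference of the Timp3 responses between BALB/c and C57BL/6 (-1.80, adjusted p = 1, limma).

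Some endothelial, fibroblast and smooth muscle markers were lower in the same comparison. Of 6 endothelial markers 4 were lower in BALB/c at Af 24 h (Tek by 2.98), and their mean per array ran from 6.05 to 8.66 against 8.65 to 9.22 in air. Of 11 fibroblast and smooth muscle markers 3 were lower and 1 higher. The part of these markers in the Timp2 and Timp3 values was not tested.

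Of 15 cytokines and transcription factors known to act on Timp1 and Mmp genes, 6 were higher and 1 lower at Af 24 h in C57BL/6 and likewise 6 and 1 in BALB/c. The median change was 0.61 and 0.45, beside 0.00 and -0.01 over all genes. Il6, a cytokine that acts through Stat3, rose by 1.93 in C57BL/6, 1.75 in SP-D-/- and 1.53 in BALB/c. Il13, the type 2 cytokine, rose by 1.29 in C57BL/6 and 0.86 in SP-D-/-. Jun, a subunit of AP-1, fell by 1.09 in C57BL/6 and 1.18 in BALB/c. In SP-D-/- 3 were higher, Stat3 (0.66) among them, and none was lower, with a median of 0.07.

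Mmp12 rose at 168 h after challenge in C57BL/6 and BALB/c. Mmp12 is macrophage elastase. In C57BL/6 it was 3.34 to 4.72 in air with a median of 4.22, where 5 of 6 arrays were at or under the filter level of 4.45, and 6.25, 9.67, 10.17 and 8.09 at Af 168 h. The lowest Af 168 h array lay above the highest air array. Mmp12 rose by 4.42 ± 0.87 (95% interval 2.68 to 6.15), or 21.38-fold (adjusted p = 0.00156, limma). In BALB/c it was 5.11, 5.26, 5.24, 5.01 and 4.57 in air and 7.89 to 10.03 at Af 168 h with a median of 9.28 (6 arrays). The BALB/c groups did not overlap, and the rise was 4.03 ± 0.82 (95% interval 2.41 to 5.66), or 16.36-fold (adjusted p = 0.00264, limma). Spike-adjusted values were 4.24 (adjusted p = 0.000155) and 4.73 (adjusted p = 5.08e-06).

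In air, Mmp12 signal lay above the filter level on 4 of 5 SP-D-/- arrays, and also on all 5 BALB/c arrays. The SP-D-/- air arrays had 3.09, 7.55, 6.21, 6.25 and 6.47, where the array at 3.09 had a spike level of 11.93. The SP-D-/- Af 168 h arrays had 9.64, 5.58, 8.58, 9.06 and 4.45. The groups overlapped and the change of 1.55 ± 0.85 was not called (adjusted p = 0.377, limma). The response of SP-D-/- minus that of C57BL/6 was -2.87 ± 1.22 (95% interval -5.30 to -0.44), not called (adjusted p = 0.999, limma). Nor was the difference of the strains in air, 1.79 ± 0.82 (adjusted p = 1, limma), although 4 of 5 SP-D-/- arrays exceeded all C57BL/6 air arrays.

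Called members at Af 168 h were 2 of 8 in C57BL/6, 0 of 8 in SP-D-/- and 1 of 8 in BALB/c, where 1.35%, 1.35% and 1.56% of genes were called. In the spike-adjusted fit 4.81% of genes were called in C57BL/6 and 1.81% in BALB/c, with the same member counts. At an unadjusted p under 0.05 the SP-D-/- count was 1, beside 15.2% of all genes. The other C57BL/6 member was Mmp14, at 6.50, 7.83, 8.26 and 8.52, which overlapped the air arrays through its first value. It rose by 1.33 ± 0.31 (adjusted p = 0.0102, limma). The call was lost without replicate 6 (1.08, adjusted p = 0.17) or replicate 4 (1.17, adjusted p = 0.139), with the mean of both probe sets (0.68, adjusted p = 0.075) and with the actin difference (1.07, adjusted p = 0.207). Timp1 at Af 168 h was 6.44, 7.69, 6.82 and 8.50 in C57BL/6. Its changes of 1.57 in C57BL/6, 1.10 in SP-D-/- and 0.50 in BALB/c were not called (adjusted p = 0.237, 0.391 and 0.73, limma). A fit of only the groups compared called Timp1 in C57BL/6 (adjusted p = 0.0189). Timp3 in BALB/c, lower by 1.37 (adjusted p = 0.0656), was called in that setting (adjusted p = 0.0139), without the 5 arrays (adjusted p = 0.041) and with cyclic loess (-1.33, adjusted p = 0.0448).

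Of 10 macrophage markers, 0 were called with limma at Af 168 h in C57BL/6 and in SP-D-/- with all arrays, where 2 and 1 had an unadjusted p under 0.05, beside 11.9% and 15.2% of all genes. Chil3 (3.18), which alternatively activated macrophages express, was the 1 called in BALB/c. Their mean per array was 6.94 to 7.33 in C57BL/6 air and 7.60 to 7.93 at Af 168 h, without overlap, and 6.56 to 7.10 and 6.89 to 7.60 in BALB/c. The spike-adjusted counts of higher markers were 2 of 10 in C57BL/6 and 3 of 10 in BALB/c. The monocyte marker Ccr2 rose by 1.98 in BALB/c. The part of macrophage number in the Mmp12 values was not tested. In BALB/c 4 of 6 skeletal muscle and cartilage markers were lower at Af 168 h (Acta1 by 5.77).

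From Af 24 h to Af 168 h in air, Mmp12 rose and Timp1 fell in BALB/c. There Mmp12 was higher at Af 168 h than at Af 24 h by 4.55 ± 0.82 or 23.41-fold (adjusted p = 0.000215, limma), and Timp1 fell by 2.61 ± 0.60 (adjusted p = 0.00441). The Mmp12 arrays at Af 24 h had 3.23 to 5.93, with 2 of 5 at or under the filter level, which limits the fold. Mmp12 and Timp1 both passed in the spike-adjusted fit (4.29 and -2.94), and the Timp1 call was lost with only the groups compared (-2.61, adjusted p = 0.141). With the spike level alone as a covariate, Timp2 (0.90, adjusted p = 0.0253) and Timp3 (1.06, adjusted p = 0.0443) were called too. These were 2 of 8 members where 4.36% of genes were called, and 1.67% in the spike-adjusted fit. In C57BL/6 Mmp12 was higher by 3.38 (adjusted p = 0.101, limma) and in SP-D-/- by 1.53 (adjusted p = 0.633), neither called. With all arrays no member was called in these strains, where 0.186% and 1.36% of genes were called and 3 and 1 members had an unadjusted p under 0.05, beside 17.7% and 8.68% of all genes. The C57BL/6 value was called without Af 24 h replicate 3 (3.91) or 6 (3.75), and that of Mmp2 was called without replicate 3 (2.50, adjusted p = 0.043). In the spike-adjusted fit Mmp2 was higher at Af 168 h in SP-D-/- by 1.47 (adjusted p = 0.0425), where 2.59% of genes were called. Mmp2 in C57BL/6, lower at Af 24 h than in air by 1.44 and not called, was called without Af 24 h replicate 3 (-1.96, adjusted p = 0.03, limma).

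**Figure D2:**
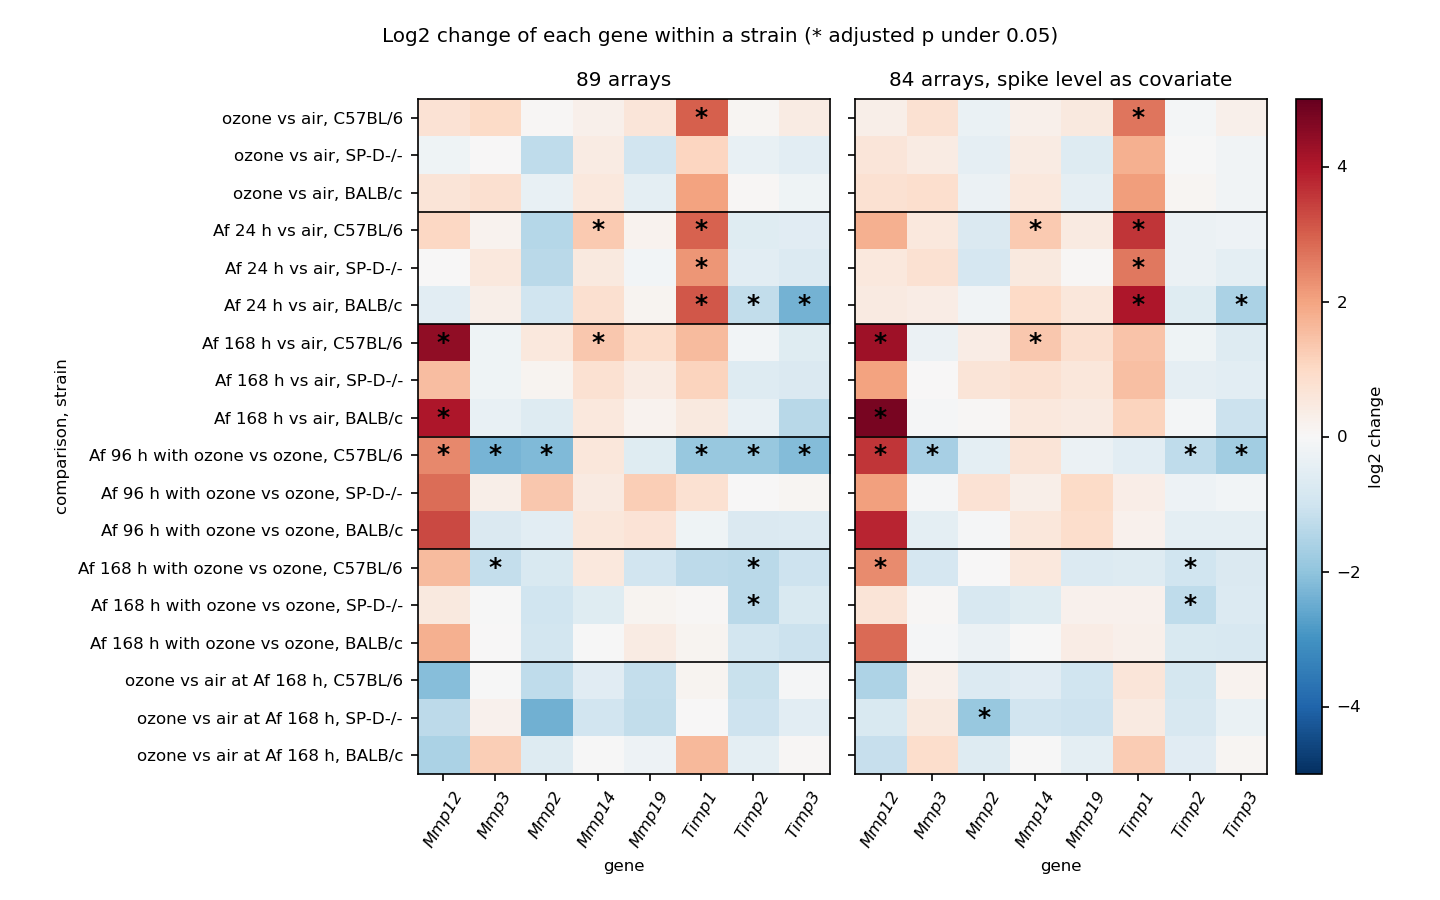
Log2 change of the 8 genes in 18 comparisons within strains, for all 89 arrays (left) and for 84 arrays with the spike level as a covariate (right). Colour gives the change, and an asterisk marks an adjusted p under 0.05 in limma. Timp1 is marked for ozone in C57BL/6 (2.99 and 2.66) and for Af 24 h in all strains in both panels, and Mmp12 for Af 168 h in C57BL/6 and BALB/c.

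Allergen with ozone at 96 h, set against ozone alone, gave the most called members in C57BL/6, 6 of 8, and 36.4% of all genes were called there. Mmp12 rose and Mmp2, Mmp3, Timp1, Timp2 and Timp3 fell. In SP-D-/- and BALB/c no member was called, where 2.58% and 0.0531% of genes were called and 3 and 1 members had an unadjusted p under 0.05, beside 18.8% and 4.8% of all genes. The spike level of the C57BL/6 Af 96 h group was 11.80 ± 0.28 (mean ± SD) against 10.19 in C57BL/6 ozone and 10.81 ± 0.42 in SP-D-/- Af 96 h. In the spike-adjusted fit 4 of the 6 C57BL/6 members were called, where 15.1% of genes were.

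Mmp12 in C57BL/6 was 4.37 to 5.25 with ozone, with a median of 4.80, and 9.04, 4.85, 8.28, 7.19 and 6.90 at Af 96 h with ozone. Only replicate 2, at 4.85, lay within the ozone range. The rise was 2.42 ± 0.82 (adjusted p = 0.0169, limma) and 3.56 in the spike-adjusted fit (adjusted p = 0.000821). Without replicate 1, at 9.04 and 1 of the arrays against their label, it was 1.97 (adjusted p = 0.0633), and without replicate 3 it was 2.17 (adjusted p = 0.0515). SP-D-/- had 5.86, 7.49, 5.16 and 4.24 with ozone and 6.89 to 9.39 at Af 96 h with a median of 8.71, and BALB/c 5.38 and 6.02 with ozone and 7.64 to 9.94 with a median of 8.91. These changes of 2.79 ± 0.87 and 3.29 ± 1.10 were not called (adjusted p = 0.0605 and 0.579, limma). The BALB/c groups did not overlap, as for 4 of 8 members and 17.6% of all tested genes in that comparison. Without SP-D-/- ozone replicate 3 the SP-D-/- change was 3.39 (adjusted p = 0.0198), and without Af 96 h replicate 4 it was 3.10 (adjusted p = 0.0477). With only the groups compared, Mmp12 was called in SP-D-/- (adjusted p = 0.0428) and BALB/c (adjusted p = 0.0496), as was Mmp2 in SP-D-/- (1.36 higher, adjusted p = 0.0394).

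Mmp3 fell most clearly among the C57BL/6 proteases. It was 7.99 to 8.42 with ozone and 6.25, 6.02, 4.60, 7.46 and 5.10 at Af 96 h with ozone, all below the ozone arrays. The fall was 2.31 ± 0.42 (adjusted p = 2.44e-05, limma) and the spike-adjusted change -1.65 (adjusted p = 0.00819). Mmp2 (gelatinase A, which cuts denatured and basement membrane collagen) was 6.13 to 7.68 with ozone and 4.08, 7.65, 4.27, 3.87 and 4.06 at Af 96 h. Its 4 low arrays were under the filter level and replicate 2 was near the top of the ozone range. The fall of 2.22 ± 0.61 (adjusted p = 0.00361, limma) was not called in the spike-adjusted fit (-0.47, adjusted p = 0.6). Mmp14 was higher at Af 96 h by 0.57 without overlap, and Mmp19 lower by 0.60, neither called (adjusted p = 0.112 and 0.313, limma). In this comparison 4 of 8 members and 16.5% of all tested genes had groups that did not overlap. Mmp14 was called with cyclic loess (0.74, adjusted p = 0.0346) and with only the groups compared (adjusted p = 0.047).

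All 3 inhibitors fell in the same comparison. Timp2 was 10.07 to 10.57 with ozone and 8.69, 7.22, 8.96, 8.55 and 8.66 at Af 96 h. No array of the Af 96 h group reached the ozone range, a fall of 1.88 ± 0.34 (adjusted p = 2.49e-05, limma). Timp3 was 9.07 to 9.77 with ozone and 8.16, 6.53, 9.51, 5.65 and 6.49, a wide group with 1 array inside the ozone range. It fell by 2.16 ± 0.41 (adjusted p = 5.95e-05, limma). The spike-adjusted changes were -1.26 for Timp2 (adjusted p = 0.00363) and -1.73 for Timp3 (adjusted p = 0.0022). Timp1 was 6.90, 7.08, 7.46, 7.17 and 5.90, below all ozone arrays, and fell by 1.88 ± 0.60 (adjusted p = 0.0112, limma). Its spike-adjusted change was -0.54 (adjusted p = 0.575).

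**Figure D3:**
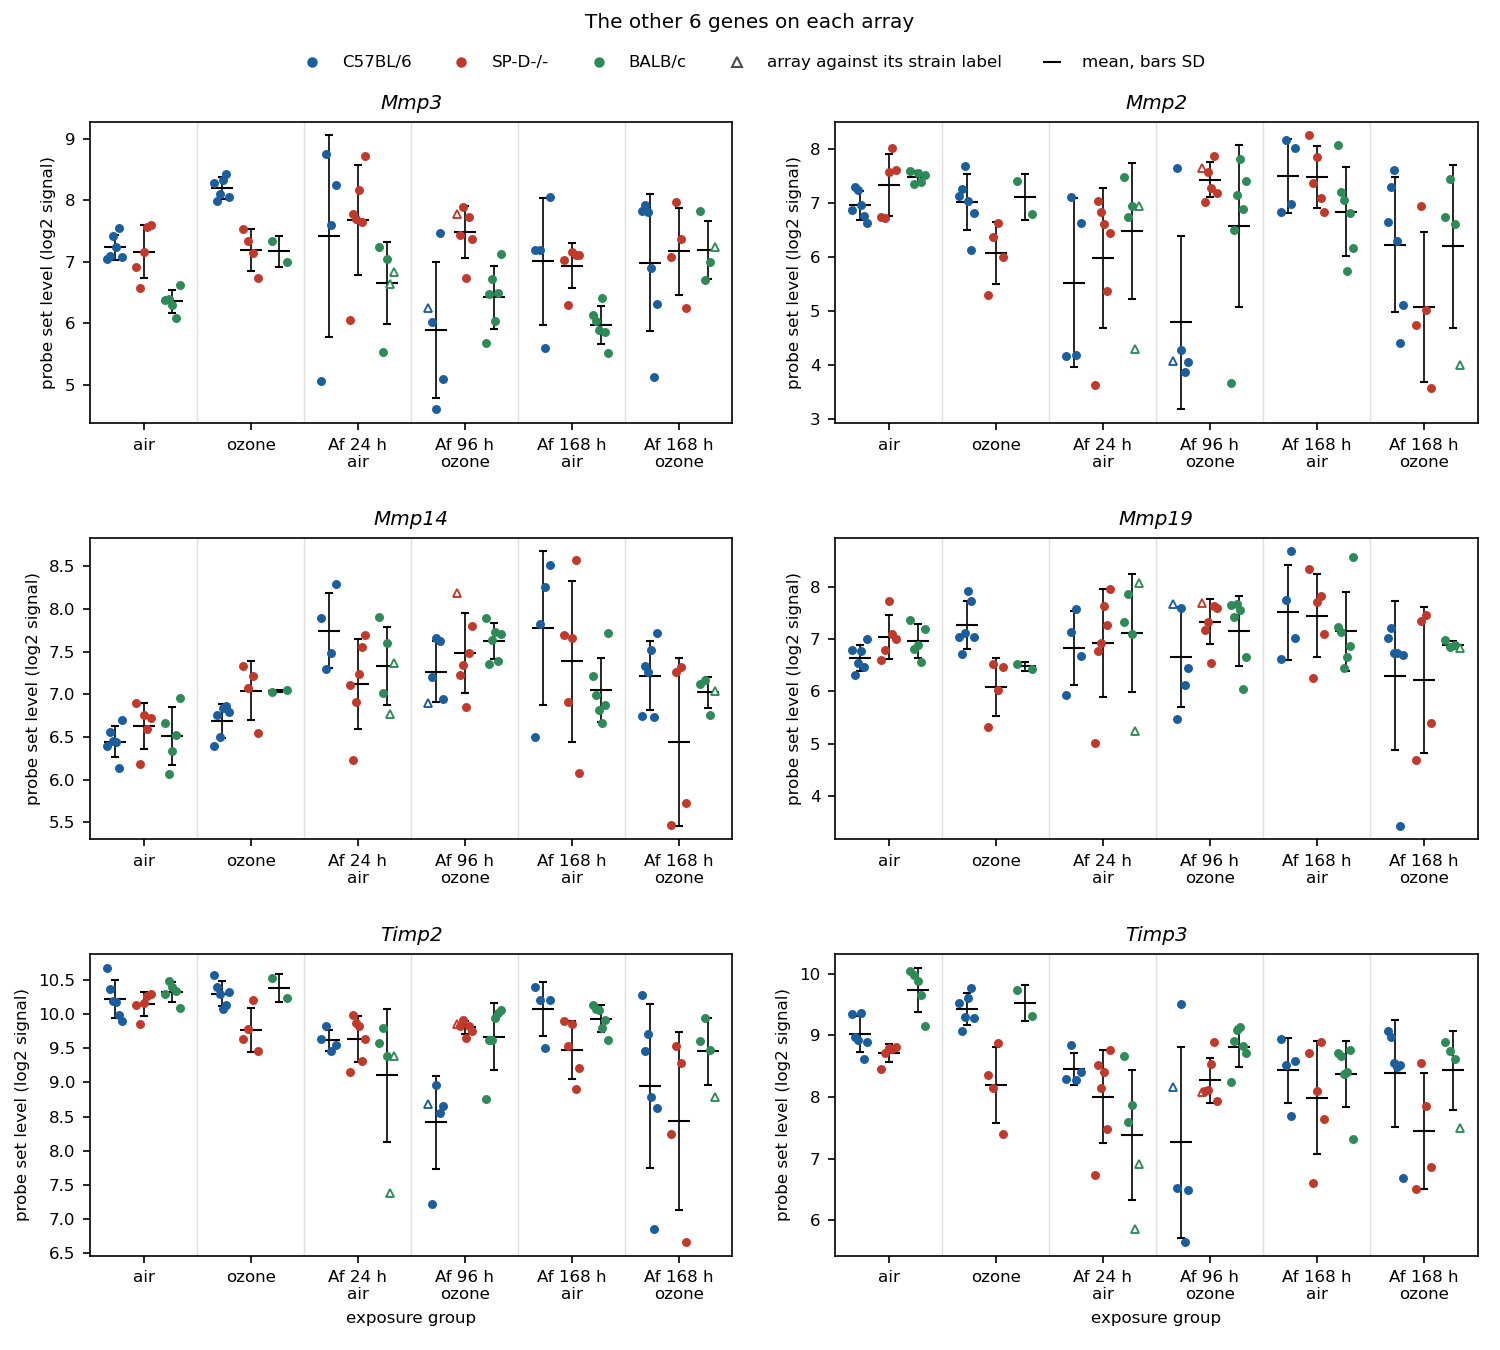
Log2 signal of Mmp3, Mmp2, Mmp14, Mmp19, Timp2 and Timp3 on each of the 89 arrays in 18 groups. Points are arrays, triangles are arrays against their label, and bars give the group mean ± SD. The C57BL/6 Af 96 h ozone group is the lowest of 18 for Mmp2 (4.79), Mmp3 (5.88), Timp2 (8.42) and Timp3 (7.27).

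Matrix genes and vessel markers fell beside these members in C57BL/6 at Af 96 h. Of 14 genes for matrix substrates of the proteases 11 were lower and 2 higher, with a median of -1.43 beside 0.00 over all genes. Tnc (tenascin C) fell by 2.95, Dcn (decorin) by 2.52 and Col1a1 (a chain of type I collagen) by 2.46. All 6 endothelial markers were lower (Tek by 4.11), and their mean per array was 6.01 to 7.39 against 8.78 to 9.18 with ozone. Of 11 fibroblast and smooth muscle markers 7 were lower and 1 higher. Of 10 macrophage markers 5 were lower and none higher, with a mean per array of 6.02 to 6.93 against 7.01 to 7.61, while Mmp12 was higher. The part of these markers and of the spike level in the members' falls was not tested beyond the spike-adjusted values above. In that fit 6 of 14 matrix genes, 6 of 6 endothelial, 4 of 11 fibroblast and smooth muscle and 3 of 10 macrophage markers were lower.

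SP-D-/- exceeded C57BL/6 for 4 members at Af 96 h with ozone, where 16.2% of genes were called. Mmp2 was 7.02 to 7.87 in SP-D-/- with a median of 7.43, and the difference was 2.64 ± 0.61 (adjusted p = 0.00435, limma). Mmp3 was 6.73 to 7.89 and higher by 1.60 ± 0.42 (adjusted p = 0.0106). Timp2 was 9.65 to 9.92, above all C57BL/6 arrays, and higher by 1.39 ± 0.34 (adjusted p = 0.00695). Timp1 was 7.81 to 9.30, also above all C57BL/6 arrays, and higher by 1.73 ± 0.60 (adjusted p = 0.0385). None of these was called in the spike-adjusted fit, where 2.9% of genes were called. There the differences were 1.41 for Mmp2 (adjusted p = 0.0974, limma), 1.15 for Mmp3 (0.149), 1.01 for Timp2 (0.0584) and 0.96 for Timp1 (0.356). The Timp1 call was also lost without any 1 of 7 arrays, among them C57BL/6 Af 96 h replicate 6 (1.47, adjusted p = 0.0846), with values of 1.47 to 1.79 over the 7. Timp3, higher by 1.01 and not called, was called without C57BL/6 replicate 1 (1.23) or replicate 3 (1.57), without the 5 arrays (1.27, adjusted p = 0.0293) and by the mean of its probe sets (1.08, adjusted p = 0.0326).

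The response to Af 96 h with ozone differed between SP-D-/- and C57BL/6 for 6 members with all arrays, where 27.4% of genes were called. The SP-D-/- response minus the C57BL/6 response was 3.58 ± 0.88 for Mmp2 (adjusted p = 0.0047, limma), 2.61 ± 0.61 for Mmp3 (0.00354) and 1.85 ± 0.69 for Mmp19 (0.0399). It was 2.64 ± 0.87 for Timp1 (adjusted p = 0.0217), 1.91 ± 0.50 for Timp2 (0.00647) and 2.24 ± 0.61 for Timp3 (0.00804). In the spike-adjusted fit 0 of 8 were called, where 0.372% of genes were called, and these 6 had differences of 0.89 to 1.61 and adjusted p of 0.212 to 0.712. This comparison shares its groups with the preceding ones, so its values restate them. The Mmp19 call was lost on leaving out any 1 of 11 arrays, and the Timp1 call without SP-D-/- ozone replicate 5 (2.54, adjusted p = 0.0586).

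BALB/c exceeded C57BL/6 in Timp2 (1.26 ± 0.34, adjusted p = 0.0168, limma) and Timp3 (1.55 ± 0.41, adjusted p = 0.0147) at Af 96 h with ozone, where 6.26% of genes were called. Both stood in the spike-adjusted fit (1.06 and 1.53), where 10.6% of genes were called. Without C57BL/6 replicate 2 they were 0.96 (adjusted p = 0.114) and 1.37 (adjusted p = 0.0637), and without replicate 4 Timp3 was 1.15 (adjusted p = 0.101). Mmp2, higher by 1.78, was called without that replicate 2 (2.50, adjusted p = 0.0107) or BALB/c replicate 1 (2.36, adjusted p = 0.00852). Timp3 was not called with only the groups compared (1.55, adjusted p = 0.106). Mmp3 was lower in BALB/c than in C57BL/6 by 0.88 in air, where the groups did not overlap (6.09 to 6.62 against 7.04 to 7.55), by 1.03 with ozone and by 1.03 at Af 168 h with air, with none called. It was higher by 0.54 at Af 96 h with ozone and by 0.21 at Af 168 h with ozone, also not called. In air 2 of 8 members and 4.07% of all tested genes had groups of these strains that did not overlap. With only the groups compared, Mmp3 in air (adjusted p = 0.00211, limma) and with ozone (adjusted p = 0.0483) and Mmp12 in air (0.91 higher, adjusted p = 0.0403) were called.

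At 168 h after challenge with ozone, set against ozone alone, Timp2 fell in C57BL/6 and SP-D-/- and Mmp3 fell in C57BL/6. C57BL/6 Timp2 arrays had 6.85 to 10.28 with a median of 9.13, a change of -1.35 ± 0.33 (adjusted p = 0.00339, limma), and -0.94 with the actin difference (adjusted p = 0.106). The other Timp2 probe sets differed in C57BL/6 by 0.31, -1.01, -0.88 and -0.76. With only the groups compared the C57BL/6 Timp2 change was not called (adjusted p = 0.145, limma). Nor were the changes of Timp2 in SP-D-/- (adjusted p = 0.625) and Mmp3 in C57BL/6 (adjusted p = 0.154). SP-D-/- had 8.25, 9.53, 9.29 and 6.67 against 9.64, 9.78, 10.21 and 9.46 with ozone. That change of -1.34 ± 0.40 (adjusted p = 0.0449, limma) was not called without any 1 of 6 of these 8 arrays, and was -0.75 without Af 168 h replicate 6 (adjusted p = 0.461). It was also not called by the mean of its probe sets (-0.72, adjusted p = 0.0561). Mmp3 arrays in C57BL/6 had 5.13 to 7.92 with a median of 7.35, below the ozone arrays, a change of -1.21 ± 0.40 (adjusted p = 0.0286, limma). Its call was lost without any 1 of 5 arrays (-0.84 without replicate 5, adjusted p = 0.19) and in the spike-adjusted fit (-0.83, adjusted p = 0.147). In that fit Mmp12 in C57BL/6 was higher by 2.37 (adjusted p = 0.0119). Timp1 and Timp3 in C57BL/6, lower by 1.31 and 1.04 and not called, were called without Af 168 h replicate 1 (-1.55 and -1.18) or replicate 2 (-1.61 and -1.16). Timp3 was also called without the 5 arrays against their label (-1.04, adjusted p = 0.0368) and by the mean of its probe sets (-1.75, adjusted p = 0.000551). The called shares were 16.5% of genes in C57BL/6, 3.18% in SP-D-/- and 0.00664% in BALB/c, and the members called 2, 1 and 0 of 8. With that adjustment 11.6% of genes were called in C57BL/6 and 8.14% in SP-D-/-. In BALB/c 0 of 8 had an unadjusted p under 0.05, beside 3.46% of all genes.

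Both SP-D-/- allergen groups with ozone could be compared directly. From Af 96 h to Af 168 h Mmp2, Timp2 and Mmp14 fell, 3 of 8 members where 15% of genes were called. Mmp2 was 4.74, 6.94, 5.02 and 3.58 at Af 168 h, below all Af 96 h arrays, a fall of 2.35 ± 0.65 (adjusted p = 0.0154, limma). Timp2 fell by 1.37 ± 0.36 (adjusted p = 0.0134) and Mmp14, at 5.47, 7.26, 7.32 and 5.73 against 6.85 to 8.19, fell by 1.04 ± 0.31 (adjusted p = 0.0227). Each call was lost without Af 168 h replicate 1 or replicate 6. Without replicate 6 the changes were -1.86 for Mmp2 (adjusted p = 0.179), -0.78 for Timp2 (0.267) and -0.80 for Mmp14 (0.225). Without replicate 1 the Mmp14 change was -0.71 (adjusted p = 0.168), and it was lost without Af 96 h replicate 1 as well (-0.90, adjusted p = 0.0548). Mmp12, lower by 2.32 and not called, was called without Af 96 h replicate 4 (-2.63), or without Af 168 h replicate 3 (-2.46) or 4 (-2.99). A fit of only these groups did not call Mmp14 (adjusted p = 0.108) or Timp2 (adjusted p = 0.0764), nor did cyclic loess call Mmp14 (-0.72, adjusted p = 0.0883). Without Af 168 h replicate 3 Mmp19 (-1.48) and Timp3 (-1.20) were called too, and without replicate 4 Mmp19 (-1.51). Only Timp2 was called in the spike-adjusted fit (-1.02, adjusted p = 0.0418), where 4.2% of genes were called. Endothelial markers were lower in 5 of 6 and mesothelial markers in 4 of 4, and 3 of 6 skeletal muscle and cartilage markers were higher (Acta1 by 5.03). The part of these markers was not tested.

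No member was called for ozone against air at Af 168 h with limma and all arrays, where 0.0597% of genes in C57BL/6, 0.604% in SP-D-/- and 0.0199% in BALB/c were called. At an unadjusted p under 0.05 there were 3, 4 and 2 of 8 members, beside 15.9%, 16.7% and 7.88% of all genes. Mmp12 was lower with ozone by 2.14 in C57BL/6, 1.31 in SP-D-/- and 1.58 in BALB/c, with adjusted p of 0.25, 0.445 and 0.693 (limma). In BALB/c the ozone arrays were 9.50, 8.64, 7.77 and 4.04, and the last was 1 of the arrays against their label. Mmp2 in SP-D-/- was lower by 2.40 (adjusted p = 0.0623), and the spike-adjusted fit called it (-1.88, adjusted p = 0.0294), where 1.35% of genes were called. So did the fit without the 5 arrays (-2.40, adjusted p = 0.0298). Without Af 168 h ozone replicate 3 or replicate 4 of SP-D-/-, Mmp2, Mmp14 and Timp2 were all called with limma, and without replicate 3 they were -3.03, -1.21 and -1.41. Mmp14 was also called without Af 168 h air replicate 6 (-1.27), and Timp2 in C57BL/6 without Af 168 h ozone replicate 1 (-1.39, adjusted p = 0.0301).

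Mmp19, which cuts basement membrane proteins, was called in no comparison within a strain. Its group means lay between 6.08 in SP-D-/- ozone and 7.51 in C57BL/6 Af 168 h air. Single arrays were far from these, such as 3.44 in C57BL/6 Af 168 h ozone, where the other 5 arrays were 6.70 to 7.20.

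The other comparisons gave no called member with limma and all arrays. For SP-D-/- against C57BL/6 the shares of genes called were 0.0664% in air, 0.797% with ozone, 0.0863% at Af 24 h, 0.0199% at Af 168 h with air and 0.504% at Af 168 h with ozone, and 1, 3, 0, 0 and 2 of 8 members had an unadjusted p under 0.05, beside 1.21%, 18.3%, 10.3%, 3.94% and 13.2% of all genes. With ozone alone Timp3 was lower in SP-D-/- by 1.23, Mmp19 by 1.18 and Mmp3 by 1.01, none called (adjusted p = 0.14, 0.208 and 0.216). The groups of these 3 of 8 members did not overlap, as for 7.85% of all genes. The spike level was 11.44 in SP-D-/- ozone and 10.19 in C57BL/6 ozone, and the spike-adjusted differences were -0.75, -0.77 and -0.46. The median over the 8 members went from -0.92 to 0.03 with that adjustment, with 2 and then 4 of 8 positive and 3 and then 1 at an unadjusted p under 0.05. With only the groups compared, Timp3 and Mmp3 were called (adjusted p = 0.0488 and 0.0396, limma). For BALB/c against C57BL/6 the shares were 0.511%, 0.146%, 0.385%, 0.597% and 0.139% in the same order, and 1, 0, 1, 2 and 0 members had an unadjusted p under 0.05, beside 3.59%, 2.96%, 9.47%, 9.32% and 7.84% of all genes. Mmp14 at Af 168 h with air, lower in BALB/c by 0.73, was called by the mean of both probe sets (-0.78, adjusted p = 0.0413). From Af 96 h to Af 168 h with ozone, 1.82% of genes in C57BL/6 and 0.0465% in BALB/c were called, and 3 and 0 members had an unadjusted p under 0.05, beside 17.6% and 5.22% of all genes. There Timp3 in C57BL/6 was called without Af 96 h replicate 3 (1.68) or Af 168 h replicate 6 (1.46), and Mmp3 without Af 168 h replicate 5 (1.47). Timp3 was also called there without the 5 arrays against their label (1.34, adjusted p = 0.0433). For the SP-D-/- minus C57BL/6 responses to ozone, Af 24 h, Af 168 h and ozone at Af 168 h, 0%, 0%, 0.00664% and 0.0398% of genes were called, and 2, 0, 1 and 0 members had an unadjusted p under 0.05, beside 7.68%, 3.74%, 2.04% and 6.14% of all genes. For the BALB/c minus C57BL/6 responses to ozone, Af 24 h, Af 168 h, Af 96 h with ozone and ozone at Af 168 h, the shares were 0%, 0.0133%, 0%, 0% and 0%, and 0, 1, 0, 3 and 0 members had an unadjusted p under 0.05, beside 0.87%, 3.66%, 4.11%, 6.92% and 7.77% of all genes.

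The wider protease system was read through 5 lists, which share no genes with the 8 members. They held 66 tested genes, of 84 listed and 71 on the array. After ozone alone none was called in any strain with limma, and 4, 13 and 3 of 66 had an unadjusted p under 0.05 in C57BL/6, SP-D-/- and BALB/c, beside 1.24%, 16.7% and 1.04% of all genes. Of 11 tested genes on the list of other metalloproteinases and Timp4, none was called with limma at Af 24 h or Af 168 h in C57BL/6 or SP-D-/-, where 0 to 3 of 11 had an unadjusted p under 0.05, beside 11.9% to 33.4% of all genes. In BALB/c at Af 24 h Mmp11 fell by 1.06 (adjusted p = 0.0404). Mmp16, a membrane-type protease, rose there at Af 168 h by 1.87 (adjusted p = 0.0218). Its BALB/c air arrays, at 3.25 to 3.47, were all under the filter level, which limits the fold. The Af 168 h arrays were spread from 3.11 to 6.98 (SD 1.67), so the groups overlapped. At Af 96 h with ozone in C57BL/6 Mmp9 (gelatinase B) fell by 1.72, Mmp11 fell by 1.27 and Mmp23 rose by 1.19, with a list median of 0.13. Mmp13 (collagenase 3) rose by 1.59 in SP-D-/- there (adjusted p = 0.0466), from a mean of 3.22 to 4.81. Its SP-D-/- ozone arrays, at 2.73 to 4.3, were all under the filter level. They overlapped the Af 96 h arrays, at 3.91 to 5.84.

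The called counts of these lists stand beside the called shares of all genes, 16.2%, 4.71% and 12.1% at Af 24 h in C57BL/6, SP-D-/- and BALB/c, 1.35% at Af 168 h in C57BL/6 and 36.4% at Af 96 h with ozone in C57BL/6. Of 16 Adam and Adamts genes and Reck, Adam15 rose in C57BL/6 at Af 24 h (1.08), and in BALB/c Adamts4 (2.21), which cuts aggrecan and versican, and Adam15 (0.75) rose and Reck, a membrane-bound inhibitor of metalloproteinases, fell by 2.15. At Af 168 h in C57BL/6 Adam8 rose by 1.49. At Af 96 h with ozone in C57BL/6 3 were higher and 7 lower, with a median of -0.65, and Reck fell by 3.92, Adam9 by 2.32 and Adamts1 by 2.12. Of 10 genes of plasminogen activation and the cathepsins, Plaur, the urokinase receptor, rose at Af 24 h by 0.77 in C57BL/6 and 0.83 in BALB/c. Ctsk, cathepsin K, rose by 1.98 at Af 168 h in C57BL/6 (adjusted p = 0.00388), and 4 of the 10 were lower at Af 96 h with ozone in C57BL/6, near the 36.4% of all genes called there, among them Plat by 2.61 and Ctsl by 2.19. Of 14 matrix substrates, Dcn fell at Af 24 h by 2.01 in C57BL/6, 1.29 in SP-D-/- and 2.33 in BALB/c, and at Af 168 h by 1.85 in BALB/c, while Vcan (versican) rose at Af 24 h by 0.96 in C57BL/6 and 1.24 in BALB/c. The list medians at Af 24 h were -0.43, -0.27 and -0.77 in C57BL/6, SP-D-/- and BALB/c.

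The genes most like each member were found by Pearson's r over the 18 group means, which share arrays, spike level and RNA amplification across genes. For Mmp12 they were Gpnmb (r = 0.948), Ctsk (0.894) and Itgax (0.854), and for Timp1 they were Adamts4 (0.865), Ch25h (0.841) and Ppa1 (0.831). Mmp3 was most like Ccl22 (0.825), Ikzf4 (0.79) and Fzd2 (0.785). Mmp2 was nearest to Glmp (0.962), Smcr8 (0.936) and Ctsa (0.931), and Mmp14 to Slc44a2 (0.938), Nup93 (0.906) and Sidt2 (0.889). Mmp19 was nearest to Atp6v1h (0.894), Fam72a (0.831) and Clptm1l (0.825). Timp2 followed Pdgfb (0.968), Robo4 (0.967) and Tmcc3 (0.966), and Timp3 followed Adamts8 (0.922), Lrat (0.918) and Gpx3 (0.915). Among members the highest r was that of Timp2 and Timp3 (0.85), followed by Mmp2 and Timp2 (0.79), while Mmp12 and Timp1 had -0.04.

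Within groups, 7 of the 8 members were lower on arrays with a high spike level. The share of all tested genes with such a relation was not computed. The first principal component of 5000 genes followed the spike level with r = 0.887, so the relation is not shown to be particular to these members. Over 89 arrays, after subtracting group means, r with the spike level was -0.687 for Mmp2 (rho = -0.714), -0.597 for Timp1 (rho = -0.58), -0.577 for Timp2 (rho = -0.668) and -0.535 for Mmp12 (rho = -0.544). For these the permutation p was 1e-05 for r and rho, the smallest that 100000 permutations can give, and 4e-05 and 3.2e-05 adjusted over 16 relations. Timp3 had r = -0.465 and rho = -0.513 (permutation p = 2e-05 and 1e-05, adjusted 6.4e-05 and 3.2e-05). Mmp3 had r = -0.406 and rho = -0.388 (permutation p = 0.00022 and 0.00063, adjusted 0.00059 and 0.0017), and Mmp19 had r = -0.339 and rho = -0.286 (permutation p = 0.0034 and 0.011, adjusted 0.0077 and 0.022). Mmp14 had r = -0.025 and rho = -0.013 (permutation p = 0.82 and 0.91). Without the 2 arrays farthest in spike level, r was -0.674 for Mmp2, -0.579 for Timp1, -0.554 for Timp2 and -0.527 for Mmp12. It was -0.439 for Timp3, -0.413 for Mmp3, -0.308 for Mmp19 and -0.006 for Mmp14. The 16 relations also cover the actin difference. With it, r within groups was -0.405 for Timp1, -0.305 for Timp3 and -0.3 for Mmp2 (adjusted permutation p = 0.011, 0.041 and 0.041). For the remaining members the adjusted permutation p of r with the actin difference was 0.14 to 0.39.

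**Figure D4:**
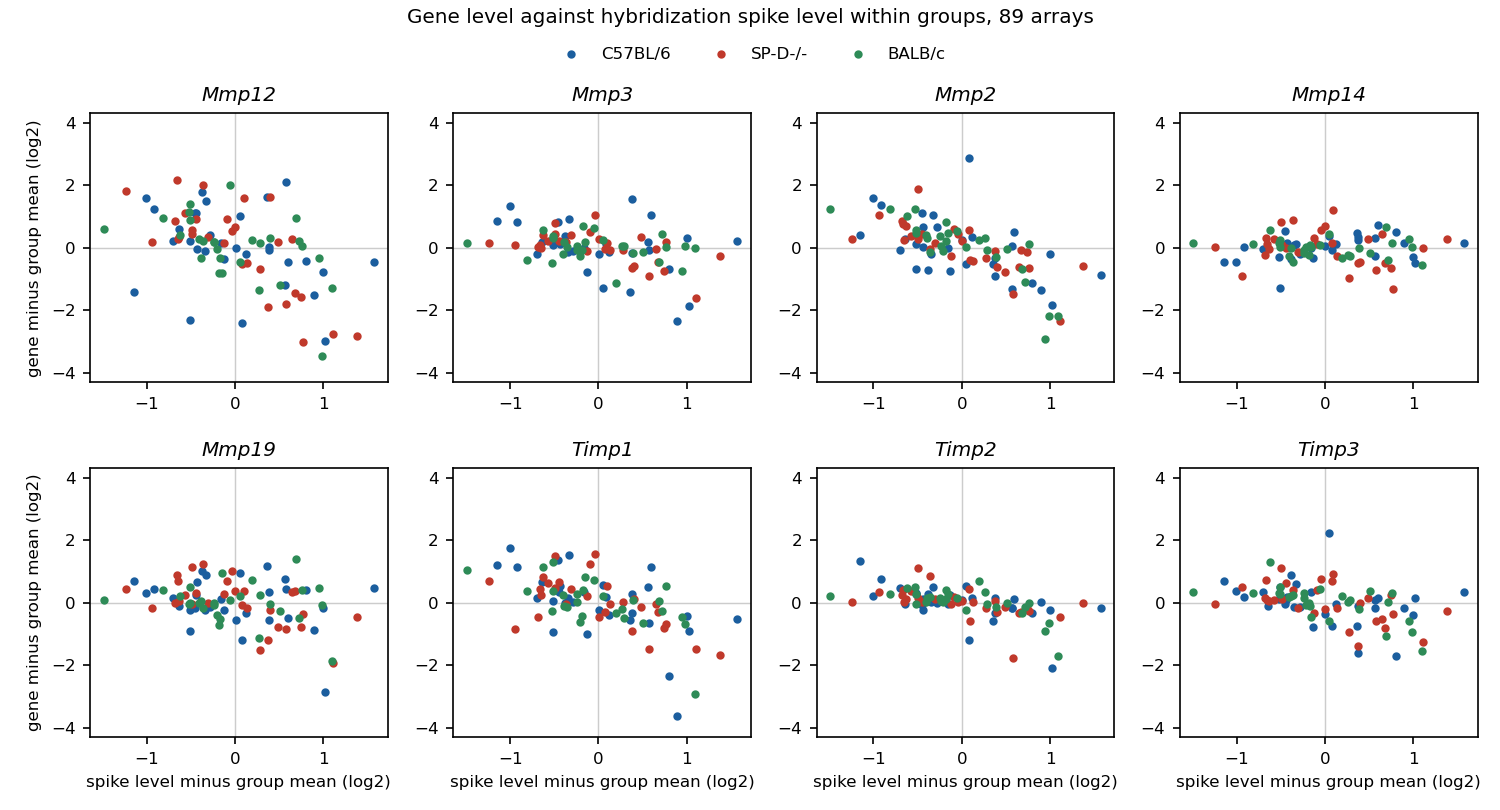
Log2 signal minus its group mean against spike level minus its group mean, for each of the 8 genes on 89 arrays, coloured by strain. Points slope downward most for Mmp2 (r = -0.687) and show no slope for Mmp14 (r = -0.025).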

How the data were processed

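The data are 89 arrays in 18 groups. The authors deposited a normalized table of log2 signals for 45141 probe sets, from 1.86 to 13.54, with the same median of 4.90 on each array. The normalization software and build are not given in the sources used here. Of the probe sets, 28898 had 1 gene symbol, 551 several, 15588 none here and 104 were controls. A gene was read by its probe set with the highest mean and tested if above the 40th percentile (log2 4.45) on 4 or more arrays (15065 genes). The number of arrays limits the precision.

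All 18 group means were fitted in R 4.3.3 using limma 3.58.1. Tests of 46 comparisons were two-sided, with Benjamini-Hochberg adjustment within each. Figures used Python 3.11.15 and matplotlib 3.10.9. The members and lists were chosen with earlier results of these data known. Members are named wherever called with all arrays or under an alternative, list genes only as the 3 largest called changes of a list and comparison, and likeness as the 3 highest r, leaving out gene models. Lists of markers give 1 example each.

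An array went against its label where Sftpd was under 9 in a wild-type strain or above 8 in SP-D-/-, or with a contrary strain index of 40 genes (16 higher in BALB/c). No array pair was identical (highest r 0.992). Alternatives were cyclic loess, the mean of a gene's probe sets, no filter, only the groups compared, the replicate number as a block, leaving out the 5 arrays, the spike level as a covariate, both, and leaving out each array. The actin difference was added after seeing the data.

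Replicate numbers were checked as pairs through residual correlations. With 3 or more pairs, all pairs passed 0.1 in these comparisons alone: C57BL/6 at Af 168 h, ozone set against air (4 pairs, mean 0.337, and -0.06 between unlike numbers), and Af 168 h air, BALB/c set against C57BL/6 (4 pairs, 0.256 and -0.048). The labels do not say what a number marks. The fit was tested on simulated data. Promoter windows and positions are from RefSeq (GRCm38.p6), and the array files carry no coordinates.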

Additional observations from a re-analysis of the deposited data

Results flagged for a closer look

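In 14 of 136 combinations of a gene and a group of 4 to 6 arrays, the highest or lowest array stood apart from the others by Dixon's criterion. Chance gives about 1 in 20 groups. The combinations are not independent, because genes share arrays, and some arrays stood apart for more than 1 gene. Replicate 1 of SP-D-/- Af 24 h had Mmp12 at 3.16, where the others had 6.11 to 6.85. Mmp2 was 7.65 on C57BL/6 Af 96 h ozone replicate 2 (others 3.87 to 4.27), 4.29 on BALB/c Af 24 h replicate 4 (others 6.73 to 7.48) and 3.66 on BALB/c Af 96 h ozone replicate 1 (others 6.50 to 7.81). Mmp3 was 6.29 on SP-D-/- Af 168 h air replicate 3 (others 7.03 to 7.15). Mmp19 was 3.44 on C57BL/6 Af 168 h ozone replicate 5 (others 6.70 to 7.20) and 8.56 on BALB/c Af 168 h air replicate 6 (others 6.44 to 7.23).

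Among the inhibitors, Timp1 was 5.14 on SP-D-/- air replicate 2 (others 6.92 to 7.65) and 8.58 on SP-D-/- ozone replicate 3 (others 7.58 to 7.74). Timp2 was 7.22 on C57BL/6 Af 96 h ozone replicate 2 (others 8.55 to 8.96), 7.39 on BALB/c Af 24 h replicate 4 (others 9.38 to 9.79) and 8.76 on BALB/c Af 96 h ozone replicate 1 (others 9.62 to 10.06). Timp3 was 6.69 on C57BL/6 Af 168 h ozone replicate 6 (others 8.48 to 9.08) and 7.32 on BALB/c Af 168 h air replicate 6 (others 8.37 to 8.76). In 13 of the 14 the array's spike level was 11.45 to 12.30, and for Timp1 on SP-D-/- ozone replicate 3 it was 10.20. Many arrays that did not stand apart also lay in that range, such as C57BL/6 air replicate 5 (11.62) and C57BL/6 Af 96 h ozone replicate 4 (12.18). The part of the spike level in these values was not tested.

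The response to Af 96 h with ozone differed between SP-D-/- and C57BL/6 by the test of the difference itself, with all arrays. The log2 difference was 1.85 for Mmp19, 3.58 for Mmp2, 2.61 for Mmp3, 2.64 for Timp1, 1.91 for Timp2 and 2.24 for Timp3, and none was called with limma in the spike-adjusted fit.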

How the results depend on the processing

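No called value of a member changed sign under any alternative. Of 36 calls, cyclic loess kept 35, the mean of probe sets 33, no filter 36, the replicate block 35, leaving out the 5 arrays against their label 35 and only the groups compared 28. The spike level, alone and without the 5 arrays, kept 20, and the actin difference added to both kept 17. Of the 36, 22 were kept whichever array was left out. Some of the changes in the number of members called, summed over strains, follow. A comparison left out of this list may have changed as well. Timp3 and Mmp3 in SP-D-/- against C57BL/6 with ozone, for example, were gained with only the groups compared. With only the groups compared, ozone against air went from 1 to 2, Af 168 h against air from 3 to 5, Af 96 h with ozone against ozone from 6 to 10, Af 168 h with ozone against ozone from 3 to 0, Af 168 h against Af 24 h from 2 to 1, Af 168 h against Af 96 h from 3 to 1 and BALB/c against C57BL/6 from 2 to 4. Without the 5 arrays, ozone against air at Af 168 h went from 0 to 1. With the spike level, Af 168 h against Af 24 h went from 2 to 4, Af 168 h against Af 96 h from 3 to 0, SP-D-/- against C57BL/6 from 4 to 0 and the SP-D-/- minus C57BL/6 responses from 6 to 0. With both changes, these last 3 were 1, 0 and 0 and ozone against air at Af 168 h 1. With the actin difference, chosen after seeing the data, Af 24 h against air went from 6 to 3, Af 168 h with ozone against ozone from 3 to 1, ozone against air at Af 168 h from 0 to 1, and SP-D-/- against C57BL/6 and the responses to 0. The cause was not tested.

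Leaving out each array gave 1 to 1 calls for ozone against air, 5 to 7 for Af 24 h, 2 to 3 for Af 168 h, 5 to 7 for Af 96 h with ozone, 2 to 5 for Af 168 h with ozone and 0 to 3 for ozone against air at Af 168 h. It gave 2 to 4 for Af 168 h against Af 24 h, 0 to 6 for Af 168 h against Af 96 h, 3 to 5 for SP-D-/- and 1 to 3 for BALB/c against C57BL/6, 4 to 6 for the SP-D-/- and 0 to 0 for the BALB/c response differences. With the replicate number as a block, in the same order, calls were 1, 6, 3, 7, 2, 0, 2, 4, 4, 3, 6 and 0. The block ended 1 call, that of Timp2 in SP-D-/- at Af 168 h with ozone (-1.36, adjusted p = 0.0533, limma). It added Mmp12 in SP-D-/- at Af 96 h against ozone (2.93, adjusted p = 0.0374) and against Af 168 h (-2.47, adjusted p = 0.034), and Mmp2 in BALB/c against C57BL/6 at Af 96 h (1.80, adjusted p = 0.0425). No pairing is stated in the labels. Signals under the filter level limit the fold that can be read. Examples are Mmp12 in C57BL/6 air, Mmp12 in BALB/c at Af 24 h and Mmp2 in C57BL/6 at Af 96 h with ozone.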
